A study of Mus musculus with 12 samples.

Results

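The gene Nfe2l2, which encodes the transcription factor NRF2, and 9 antioxidant and detoxification genes linked to it were followed across 12 arrays of primary mouse hepatocytes. The members were chosen by name, as every probe set annotated to Nfe2l2, Nqo1, Ugdh, Aldh3a1, Gclc, Gclm, Hmox1, Txnrd1, Srxn1 or Slc7a11 and to no other symbol. This gave 19 probe sets of the 34945 that carry a single symbol, among 45101 on the array. Each gene was represented by its brightest such probe set, so that the 10 genes stood among 18193 genes tested.

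The cells were liver hepatocytes kept for 48 h in a serum-free medium holding DMSO and dexamethasone, which all 4 groups shared, and then given 10 nM TCDD or DMSO as vehicle for 6 h. The aryl hydrocarbon receptor (AHR) is the transcription factor through which this dioxin acts. Each group had 3 arrays, and the series' design text gives 1 array per mouse. The C57BL6/J groups carry the mouse receptor. The hAHR groups came from mice with the Ahrtm3.1Bra allele, a floxed mouse Ahr gene, together with the transgenes Alb-cre, which places Cre under the albumin promoter, and Ttr-AHR, which places human AHR under the transthyretin promoter. Both promoters act mainly in hepatocytes, so other liver cells of these mice would keep the mouse gene. Age, culture day and scan date are not in the labels, and an effect of the culture day cannot be told apart from one of genotype.

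In resting cells KEAP1, an adaptor of a CUL3 ubiquitin ligase, holds NRF2 in the cytoplasm and sends it to the proteasome. Electrophiles and oxidants modify KEAP1, NRF2 then accumulates, pairs with a small MAF protein and binds antioxidant response elements in front of genes for glutathione synthesis, thioredoxin reduction and quinone detoxification. AHR with its partner ARNT binds the xenobiotic response element. Nqo1 and Nfe2l2 itself are known AHR targets, and the liver is a main site of both pathways.

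Signals are the deposited intensities, rescaled so that every array had a trimmed mean of 150. The median of an array was then 16.5 to 23.5, and arrays of the same group correlated across genes with r of 0.958 to 0.985. The hepatocyte markers were strong, with 9 of 10 listed genes measured and none of them with a mean under 16. The AHR target Cyp1a1 served as a check of the treatment. Its signal was 25.3, 24.0 and 18.5 in the C57BL6/J DMSO arrays and 125, 2518 and 64.9 in the C57BL6/J TCDD arrays. In hAHR cells it was 81.9, 63.0 and 60.5 under DMSO and 6624, 4004 and 6939 under TCDD. As a ratio, the C57BL6/J TCDD arrays thus lay much farther from each other than the hAHR TCDD arrays did. Both C57BL6/J replicate 2 arrays carried Xist, an RNA of female cells, at 3085 and 2952, against at most 29.3 in any other array, and some of the results are also given without them. Eif2s3y, the other check of the cells' sex, read 4.70 and 0.42 in these replicate 2 arrays, against 453 to 765 in the other arrays. By both checks they appear to come from animals of another sex than the rest, and the labels give no sex. The genotype comparison thus sets hAHR arrays low in Xist against a C57BL6/J vehicle group whose replicate 2 carried it.

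Promoter sequences are shown for the members whose TCDD arrays all lay above the DMSO arrays in at least 1 genotype and for which the RefSeq table held a window, namely Nfe2l2, Nqo1 and Ugdh. This choice was made after the values were seen, because the rule set out earlier, separation in both genotypes, was met by 0 of the 10 members. Each window runs from 250 bases before to 50 bases after the annotated start, 5′ to 3′ on the gene's own strand, from RefSeq on GRCm38.p6. Capitals mark matches to the core TGACNNNGC of the antioxidant response element and to GCGTG, the core of the xenobiotic response element, both searched on both strands. The windows are chr2:75704614-75704913 for Nfe2l2, chr8:107403156-107403455 for Nqo1 and chr5:65435793-65436092 for Ugdh, all on the minus strand.
Nfe2l2: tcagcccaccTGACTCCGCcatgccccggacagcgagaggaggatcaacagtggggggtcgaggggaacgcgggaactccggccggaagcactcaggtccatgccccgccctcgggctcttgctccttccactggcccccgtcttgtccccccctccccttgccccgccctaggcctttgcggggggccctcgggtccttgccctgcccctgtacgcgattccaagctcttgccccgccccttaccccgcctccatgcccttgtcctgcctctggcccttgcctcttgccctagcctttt
Nqo1: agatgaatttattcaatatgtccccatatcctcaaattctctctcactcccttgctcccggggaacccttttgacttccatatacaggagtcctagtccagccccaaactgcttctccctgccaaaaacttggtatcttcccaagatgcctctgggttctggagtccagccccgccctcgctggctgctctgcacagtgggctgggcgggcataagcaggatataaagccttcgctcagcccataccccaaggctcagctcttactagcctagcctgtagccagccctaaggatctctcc
Ugdh: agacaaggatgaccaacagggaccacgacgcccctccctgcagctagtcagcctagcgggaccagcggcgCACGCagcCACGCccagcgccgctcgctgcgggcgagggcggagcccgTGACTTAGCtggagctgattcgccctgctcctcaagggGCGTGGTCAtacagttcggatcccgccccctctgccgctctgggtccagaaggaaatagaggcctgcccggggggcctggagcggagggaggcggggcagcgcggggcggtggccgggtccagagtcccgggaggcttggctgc

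The Nfe2l2 window held a single match, TGACTCCGC, starting 240 bases before the start, and no GCGTG. The Ugdh window held TGACTTAGC from 132 bases before the start and GCGTGGTCA, a reverse-strand match to TGACNNNGC, from 94 bases before it. The first 5 letters of that second match are also a GCGTG match, so that both motifs overlap there, and CACGC stood at 180 and 172 bases before the start. The Nqo1 window held neither motif. Of the 7 members with a window, 5 held TGACNNNGC (Nfe2l2, Ugdh, Gclm, Txnrd1 and Srxn1) and 4 held GCGTG (Ugdh, Gclm, Txnrd1 and Srxn1). Txnrd1 had 3 windows and was counted once, with TGACNNNGC in window 2 only. Among all 32851 windows of the table, 12.4% held TGACNNNGC and 32.4% held GCGTG. These shares are per window and the member counts per gene, so Txnrd1 had 3 windows in which to match. A match describes these letters and is not a binding site that was measured here.

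In C57BL6/J cells given TCDD, all 10 members had a mean above vehicle, with log2 changes from 0.16 to 0.58 and a median of 0.43. Over all genes the median was 0.03 and 55.7% of genes lay above 0. Leaving out 1 array gave 8 to 10 members above vehicle in C57BL6/J, with the near-floor Aldh3a1 and Hmox1 below it without TCDD replicate 3. In hAHR cells 8 of 10 members lay above vehicle, from -0.01 to 0.62, with a median of 0.14 against -0.01 over all genes, of which 46.9% lay above 0. No member passed the adjusted threshold of 0.05 in either genotype (limma with Benjamini-Hochberg adjustment over all genes). Called genes were few altogether, namely 1 gene (0.00550%) in C57BL6/J and 4 genes (0.0220%) in hAHR cells. The members' adjusted p was 0.966 to 0.967 in C57BL6/J and 1.00 in hAHR cells, so every member is described below by its values.

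**Figure D1:**
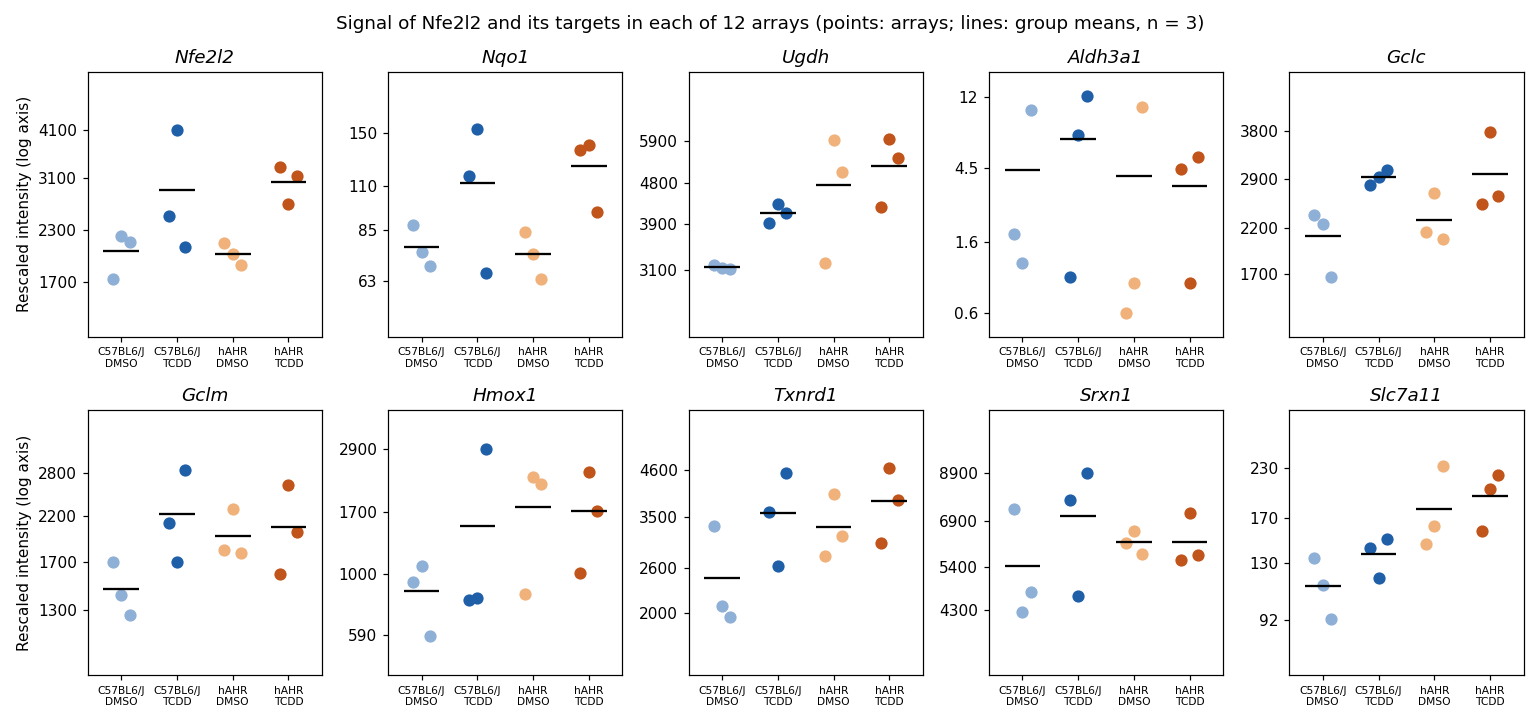
Signal of each member in the 12 arrays, as rescaled intensity on a log axis, with points for arrays and lines for the means of 3 arrays. The hAHR TCDD arrays of Nfe2l2 (2666 to 3314) sit above all hAHR DMSO arrays (1871 to 2122), while Aldh3a1 stays at or below 12.1 everywhere.

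Nfe2l2, the regulator itself, was an abundant transcript, brighter than 97.0% of genes. Its signal was 1727, 2216 and 2145 in the C57BL6/J DMSO arrays and 2484, 4106 and 2079 under TCDD. The TCDD values spread widely, and the lowest of them lay among the DMSO values, so the groups overlapped. In hAHR cells it was 2122, 1992 and 1871 under DMSO and 3314, 2666 and 3131 under TCDD. Here every TCDD array lay above every DMSO array, a separation in this direction that 3.34% of all genes showed.

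The log2 change of Nfe2l2 was 0.45 (SE 0.21, 95% confidence interval 0.01 to 0.90) in C57BL6/J and 0.60 (SE 0.21, 0.15 to 1.04) in hAHR cells, or 1.37-fold and 1.51-fold. Unadjusted p was 0.0459 and 0.0121 in limma. Averaged over genotypes the change was 0.53 (SE 0.15, 0.21 to 0.84, adjusted p = 0.904 in limma, 6 arrays against 6). The C57BL6/J value rested largely on replicate 2 under TCDD, without which it was 0.17, while without replicate 3 it was 0.66. In hAHR cells, leaving out any single array gave 0.53 to 0.69. The hAHR effect was larger by 0.14, with an interval from -0.48 to 0.77, so a difference between genotypes was not detectable in either direction.

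Nqo1, the quinone reductase used as a textbook NRF2 and AHR target, was a dim transcript near the middle of the range, brighter than 59.2% of genes. It read 87.3, 74.5 and 68.9 in C57BL6/J DMSO arrays and 117, 153 and 66.0 under TCDD. The replicate 3 TCDD array lay below all 3 vehicle arrays. In hAHR cells the values were 84.1, 73.6 and 63.5 under DMSO and 136, 139.8 and 94.2 under TCDD, which did not overlap. Its log2 change was 0.41 (SE 0.25, -0.14 to 0.95) in C57BL6/J and 0.62 (SE 0.25, 0.08 to 1.17) in hAHR cells. Without the replicate 2 TCDD array the C57BL6/J change was 0.17, and without replicate 3 it was 0.70.

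In the C57BL6/J TCDD arrays Cyp1a1, Nfe2l2 and Nqo1 had the same order, with replicate 2 highest and replicate 3 lowest. In the hAHR TCDD arrays they did not, since replicate 2 was the lowest for Cyp1a1 and Nfe2l2 and the highest for Nqo1. With 3 arrays a group these orders are a description.

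Glutathione synthesis was represented by Gclc and Gclm, the catalytic and modifier subunits of glutamate-cysteine ligase, and by Slc7a11, the cystine transporter that supplies their substrate. Gclc read 2369, 2257 and 1672 in C57BL6/J DMSO arrays and 2805, 2923 and 3056 under TCDD, so every TCDD array lay above every vehicle array. In hAHR cells it read 2146, 2679 and 2074 under DMSO and 2521, 3778 and 2632 under TCDD, where the groups overlapped through the vehicle replicate 2. Its log2 change was 0.49 (SE 0.18, 0.11 to 0.87) in C57BL6/J and 0.36 (SE 0.18, -0.03 to 0.74) in hAHR cells.

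Gclm read 1703, 1415 and 1260.5 in C57BL6/J DMSO arrays and 2116, 1698 and 2849 under TCDD, overlapping only between the highest vehicle and the lowest TCDD array. The hAHR values were 1819.8, 2294 and 1789.8 under DMSO and 1586, 2623 and 2013 under TCDD, and the ranges lay over each other. The log2 change was 0.58 (SE 0.21, 0.12 to 1.04) in C57BL6/J and 0.05 (SE 0.21, -0.40 to 0.51) in hAHR cells. The difference of -0.52 (interval -1.17 to 0.12, unadjusted p = 0.103 in limma) had the lowest unadjusted p of the 10 members and an adjusted p of 0.998.

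Slc7a11 read 133, 114 and 92.4 in C57BL6/J DMSO arrays and 142, 118 and 150.2 under TCDD. Signals in hAHR cells were 145, 162 and 233 under DMSO and 157, 203 and 221 under TCDD. TCDD and vehicle arrays overlapped in both genotypes, with log2 changes of 0.25 (SE 0.20) and 0.11 (SE 0.20).

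The thioredoxin branch was represented by Txnrd1, the cytosolic thioredoxin reductase, and Srxn1, sulfiredoxin, which restores oxidised peroxiredoxins. Txnrd1 read 3326, 2084 and 1954 in C57BL6/J DMSO arrays and 3601, 2627 and 4504 under TCDD. hAHR cells gave 2784, 3995 and 3127 under DMSO and 2999, 4643 and 3859 under TCDD. Both pairs of groups overlapped, and the log2 change was 0.55 (SE 0.24, 0.02 to 1.07) in C57BL6/J and 0.21 (SE 0.24, -0.32 to 0.73) in hAHR cells.

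Srxn1 was the brightest member, above 99.3% of genes. It read 7326, 4251 and 4724 in C57BL6/J DMSO arrays and 7706, 4628 and 8869 under TCDD. For hAHR cells the readings were 6124, 6539 and 5765 under DMSO and 5600.5, 7173 and 5748 under TCDD. Its log2 change was 0.37 (SE 0.24, -0.15 to 0.88) in C57BL6/J, while the hAHR means were nearly equal, at 6143 ± 387 and 6174 ± 869 (SD, n = 3).

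Hmox1, heme oxygenase 1, which degrades heme and answers to oxidants, had the widest interval of the members. In C57BL6/J cells it read 933, 1064 and 587 under DMSO and 795, 810.1 and 2899 under TCDD, so a single TCDD array, replicate 3, stood above the rest. The hAHR values were 842, 2294 and 2162 under DMSO and 1007, 2395 and 1708 under TCDD, with replicate 1 lowest in both groups. The log2 change was 0.55 (SE 0.50, -0.52 to 1.62) in C57BL6/J and -0.01 (SE 0.50, -1.08 to 1.06) in hAHR cells. Without replicate 3 of the C57BL6/J TCDD group the first of these was -0.06. That array was also the lowest of its group for Cyp1a1.

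Ugdh, UDP-glucose dehydrogenase, makes the UDP-glucuronic acid used in glucuronidation. Its C57BL6/J DMSO arrays were close together at 3185, 3141 and 3120.2, and all TCDD arrays lay above them at 3933, 4312 and 4128. Signals in hAHR cells were 3223, 5919.9 and 5070.5 under DMSO and 4243, 5949.9 and 5426 under TCDD, which overlapped, with replicate 1 lowest in both groups. The log2 change was 0.39 (SE 0.19, -0.03 to 0.80) in C57BL6/J and 0.17 (SE 0.19, -0.25 to 0.58) in hAHR cells. Aldh3a1, an aldehyde dehydrogenase that dioxin induces strongly in hepatoma lines, was near the floor of the array in all 12 arrays, at 0.60 to 12.1. Its log2 changes of 0.16 and -0.01 rest on these near-floor signals.

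**Figure D2:**
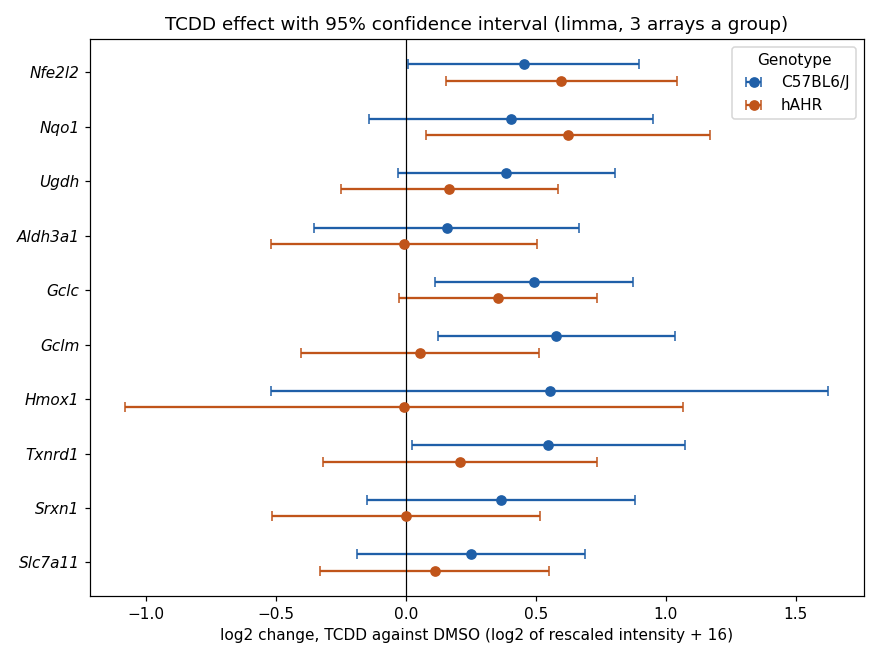
Log2 change under TCDD for each member in C57BL6/J and hAHR cells, with 95% confidence intervals from limma (3 arrays a group). Intervals clear of 0 belong to Nfe2l2, Gclc, Gclm and Txnrd1 in C57BL6/J and to Nfe2l2 and Nqo1 in hAHR cells.

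In C57BL6/J cells 4 of 10 members had an unadjusted p under 0.05 (limma), all with the higher mean under TCDD (Nfe2l2, Gclc, Gclm and Txnrd1), against 3.00% of all genes in that direction and 1.19% in the other. This count was 0 without DMSO replicate 3, and 2 without hAHR DMSO replicate 3 or hAHR TCDD replicate 3, which enter through the shared spread. Among the other settings it was 1 with a shared median, 2 with no intensity trend or the mean over probe sets and 6 with array weights. Groups did not overlap in 2 of 10 members (Ugdh and Gclc), against 6.18% of all genes. Leaving out some of the arrays raised that number, to 5 without DMSO replicate 1, 6 without TCDD replicate 2, 4 without TCDD replicate 3 and 6 without both replicate 2 arrays. With fewer arrays groups separate more easily for every gene, and the share of all genes was not computed for these sets. Members had been chosen with results of these arrays known, and neither count takes account of how the members vary together.

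In hAHR cells 2 of 10 members had an unadjusted p under 0.05 (limma), Nfe2l2 and Nqo1, against 1.42% of all genes in the higher and 1.48% in the lower direction, and the same pair had groups that did not overlap. The count of p values was 1 without DMSO replicate 3 or without TCDD replicate 2. The number of members above vehicle was 5 in place of 8 without DMSO replicate 1. Same-numbered hAHR arrays deviated together across genes, and within these 3 pairs the TCDD array lay above the DMSO array every time for 5 of 10 members (Nfe2l2, Nqo1, Ugdh, Gclc and Txnrd1), against 12.2% of all genes. With the replicate number as a block, unadjusted p was 0.00341 for Nfe2l2, 0.0118 for Nqo1, 0.0169 for Gclc, 0.123 for Ugdh and 0.261 for Txnrd1 (limma), each with an adjusted p of 1.00. Averaged over genotypes, 10 of 10 members lay above vehicle (51.9% of all genes) with a median of 0.30, and 4 had an unadjusted p under 0.05, namely Nfe2l2, Nqo1, Gclc and Txnrd1, against 2.17% of all genes in the higher and 1.38% in the lower direction. No member was called there either, in a comparison with 4 called genes (0.0220%).

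The TCDD effect was smaller in hAHR cells than in C57BL6/J for 8 of 10 members and larger for Nfe2l2 and Nqo1. The C57BL6/J TCDD arrays alone were deposited on another scale. What their separate processing left after rescaling cannot be told apart from the TCDD effect in C57BL6/J or from this difference. Of all genes, 44.1% had the larger effect in hAHR cells. The members' median difference was -0.19, against -0.04 over all genes. The differences ran from -0.56 for Hmox1 (interval -2.08 to 0.95) to 0.22 for Nqo1 (-0.55 to 0.99), and every interval held 0. Neither a member nor any other gene passed the adjusted threshold (0.00%, limma), and the number of members with an unadjusted p under 0.05 was 0, against 0.934% of all genes in the higher and 2.21% in the lower direction. That count was 1 without hAHR DMSO replicate 1, hAHR TCDD replicate 2 or both C57BL6/J replicate 2 arrays, and 2 without C57BL6/J TCDD replicate 2. Without hAHR DMSO replicate 3, 4 members in place of 2 had the larger hAHR effect.

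**Figure D3:**
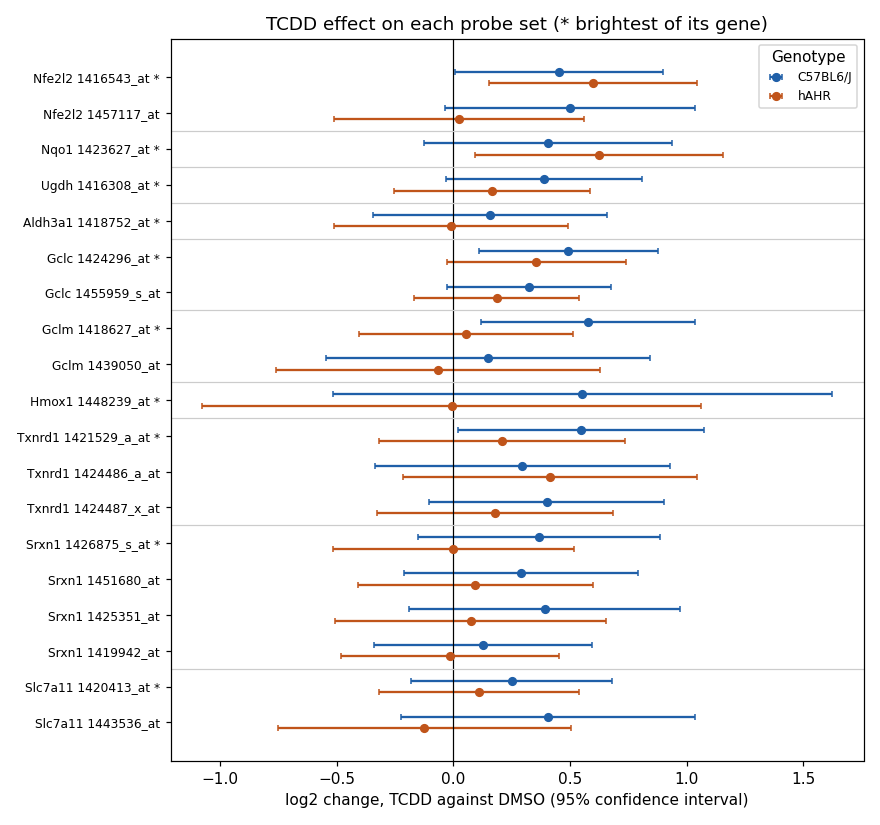
Log2 change under TCDD, with 95% confidence intervals, for each of the 19 member probe sets, an asterisk marking the brightest of each gene. The second Nfe2l2 probe set had 0.50 in C57BL6/J and 0.02 in hAHR cells, where the brightest had 0.60.

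Of the 10 members, 6 had more than 1 probe set, and in C57BL6/J cells all probe sets of a gene had changes of 1 sign. The dim second Nfe2l2 probe set, 1457117_at, read 48.7, 41.5 and 26.9 in C57BL6/J DMSO arrays and 60.4, 49.3 and 74.5 under TCDD, which did not overlap. hAHR cells gave 43.8, 55.5 and 37.7 under DMSO and 31.4, 63.8 and 47.9 under TCDD, a log2 change of 0.02 with an interval from -0.51 to 0.56. The separation of the hAHR groups was thus seen on the brighter Nfe2l2 probe set, 1416543_at, and not on this one. The second Gclc probe set, 1455959_s_at, also had all C57BL6/J TCDD arrays (1111 to 1295) above all DMSO arrays (824 to 1068). Srxn1 had 4 probe sets, at 0.13 to 0.39 in C57BL6/J and -0.02 to 0.09 in hAHR cells, and Txnrd1 had 3, at 0.30 to 0.55 and 0.18 to 0.41. The second Gclm probe set, 1439050_at, had 0.15 and -0.06. The second Slc7a11 probe set, 1443536_at, had 0.41 (SE 0.29) in C57BL6/J and -0.12 (SE 0.29) in hAHR cells, there opposite in sign to the brightest one.

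Between genotypes without TCDD, 7 of 10 members were higher in hAHR cells (55.1% of all genes), with a median of 0.32 against 0.03 over all genes. No member was called, in a comparison with 1 called gene (0.00550%, limma). Slc7a11 had 145 to 233 in hAHR against 92.4 to 133 in C57BL6/J vehicle arrays, a log2 difference of 0.59 (SE 0.20, 0.15 to 1.03). Ugdh had 3223 to 5919.9 against 3120.2 to 3185, a difference of 0.54 (SE 0.19, 0.12 to 0.96). These and Gclm (0.43, SE 0.21, -0.03 to 0.89) were the 3 members whose groups did not overlap, against 6.27% of all genes higher in hAHR cells. The number was 5 without C57BL6/J DMSO replicate 1, a smaller set for which the share of all genes was not computed. Adjusted p was 0.965 for each of the 3 in limma.

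An unadjusted p under 0.05 was found in this comparison for Ugdh and Slc7a11 (limma), against 2.63% of all genes in the higher and 1.60% in the lower direction. The count was 0 without hAHR DMSO replicate 3, 1 without hAHR DMSO replicate 2 or C57BL6/J DMSO replicate 3, and 4 without C57BL6/J DMSO replicate 1 or TCDD replicate 3. It was 5 with array weights and 4 with only the 6 vehicle arrays. Hmox1 had the largest difference, 0.94 (SE 0.50, -0.14 to 2.01), with overlapping groups. Nfe2l2 and Nqo1 differed by -0.02 (-0.46 to 0.43) and -0.05 (-0.60 to 0.50). A second Slc7a11 probe set, 1443536_at, read 98.0, 230.5 and 215 in hAHR and 105, 74.1 and 85.6 in C57BL6/J vehicle arrays, a difference of 0.85 (SE 0.29) with overlap through hAHR replicate 1.

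Markers of Kupffer cells, the resident macrophages of the liver, moved with part of this comparison. Of 8 listed markers, 7 had a higher mean in hAHR than in C57BL6/J vehicle arrays (55.1% of all genes), with a median log2 difference of 1.01. Of the 8, 0 were called and 1 was higher without overlap (6.27% of all genes). The same held without overlap for 1 of 8 stellate and 1 of 6 endothelial cell markers. The summed signal of the Kupffer cell markers was 1921 to 3411 in C57BL6/J and 2063 to 4091 in hAHR vehicle arrays. Under TCDD it was 1876 to 4185 and 1863 to 3834. Most of each sum was Cd68, with a mean of 2392 in C57BL6/J and 2729 in hAHR vehicle arrays, so the sums say little of the other markers. Marco, a macrophage scavenger receptor, read 3.10, 43.4 and 102 in the hAHR DMSO arrays and 4.50, 23.4 and 122 in the hAHR TCDD arrays, against at most 2.80 in any C57BL6/J array. Timd4, another marker of these cells, was at or below 10.2 throughout. The hAHR arrays low in Marco, replicate 1 of both groups, were also those lowest in Hmox1, Ugdh, Slc7a11 and Txnrd1. Slc7a11, at 145, 162 and 233 under DMSO and 157, 203 and 221 under TCDD, had the order of Marco in both hAHR groups. The part of these cells in the genotype values was not tested, and fewer cells of a type cannot be told apart from less RNA per cell in such samples.

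Of 11 partners and regulators of NRF2, all were measured. In C57BL6/J cells 11 of 11 had a higher mean under TCDD, with a median log2 change of 0.20, and in hAHR cells 8 of 11, with a median of 0.05, where 55.7% and 46.9% of all genes lay above 0. None was called in either genotype by limma, while an unadjusted p under 0.05 was found for 1 in C57BL6/J and 2 in hAHR cells, all with the higher mean under TCDD, against 3.00% and 1.42% of all genes in that direction. Maff, a small MAF protein that can pair with NRF2, was among them in both genotypes. It read 478, 235 and 341 in C57BL6/J DMSO arrays and 707, 379 and 1391 under TCDD. For hAHR cells the readings were 529.6, 747 and 463 under DMSO and 1191, 1460.2 and 1197 under TCDD, where the groups lay well apart. Its log2 change was 1.06 (SE 0.37, 0.27 to 1.85) and 1.15 (SE 0.37, 0.36 to 1.93), and 1.10 averaged over genotypes (SE 0.26, adjusted p = 0.825 in limma).

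The other regulator was Rbx1, the RING subunit of the CUL3 ligase, in hAHR cells (0.79, SE 0.31). Its arrays were dim, at 30.6, 2.20 and 3.30 under DMSO and 28.4, 26.1 and 28.9 under TCDD, so the value rests on 2 vehicle arrays near 0. Mafk, another small MAF gene, had 0.53 (SE 0.29) in C57BL6/J and 0.02 in hAHR cells. Cul3, the ligase scaffold, and Gsk3b, a kinase that marks NRF2 for another route of decay, had 0.23 and 0.17 in C57BL6/J cells, and Btrc, which serves that route, had 0.16 in hAHR cells, each with overlapping groups. Keap1, the sensor that restrains NRF2, had changes of 0.00 (SE 0.15) and -0.08 (SE 0.15).

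Of 35 further genes of the pathway, among them glutathione transferases, pentose phosphate enzymes, ferritin and export pumps, 30 were measured. In C57BL6/J cells 18 were above and 12 below vehicle, with a median of 0.04, and in hAHR cells 22 were above and 8 below, with a median of 0.05. None was called in either by limma, and 0 in C57BL6/J and 1 in hAHR cells had an unadjusted p under 0.05, where 3.00% and 1.42% of all genes had one in the higher direction, so these counts lie near the background. The 1 gene was Cbr3, a carbonyl reductase of quinones, which read 101, 120.1 and 92.6 in hAHR DMSO arrays and 156, 185 and 164 under TCDD. All TCDD arrays lay above the vehicle arrays, with a log2 change of 0.61 (SE 0.19, 0.21 to 1.01), while in C57BL6/J cells it was 0.23 (SE 0.19). Pgd, a pentose phosphate enzyme that makes NADPH, also had hAHR groups that did not overlap (0.14, SE 0.11), which made 2 of 30 genes against 3.34% of all genes in that direction. The heme transporter Slc48a1 and the export pump Abcc2 had 0.24 each in C57BL6/J cells, and the glutathione transferase Gsta4 had -0.18 there and 0.15 in hAHR cells. The median over these 30 genes was thus below the members' median in both genotypes, a difference that was not tested.

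Within groups, Nfe2l2 on its brighter probe set, 1416543_at, lay opposite to most of the other members. Each array's deviation from the mean of its group was taken, and over the 12 arrays Nfe2l2 correlated with Srxn1 at r = -0.92 (Spearman's rho -0.92), with Txnrd1 at -0.81 (rho -0.91) and with Gclm at -0.79 (rho -0.76). Of its 9 pairs with other members 1 was positive, with Nqo1. In C57BL6/J alone the 3 values were -0.94, -0.88 and -0.91, and in hAHR cells -0.69, -0.73 and -0.73 (6 arrays each). Without the 2 arrays farthest from the median in Nfe2l2, both of the C57BL6/J TCDD group, they were -0.86, -0.81 and -0.67. Without the C57BL6/J replicate 2 arrays they were -0.83, -0.85 and -0.83. Subtracting the means of groups of 3 leaves few free values, and each array enters both genes with its own scale, so these are descriptions of 12 arrays. Same-numbered hAHR arrays also deviated together across genes, as the C57BL6/J replicate 2 arrays did (r of 0.51), so the 12 deviations are not independent of each other. The dim Nfe2l2 probe set, 1457117_at, did not run opposite to Srxn1 in this way. It read 60.4, 49.3 and 74.5 in the C57BL6/J TCDD arrays, where Srxn1 read 7706, 4628 and 8869. It also had the order of Srxn1 in both hAHR groups, though not in the C57BL6/J DMSO arrays. No correlation was computed for that probe set.

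**Figure D4:**
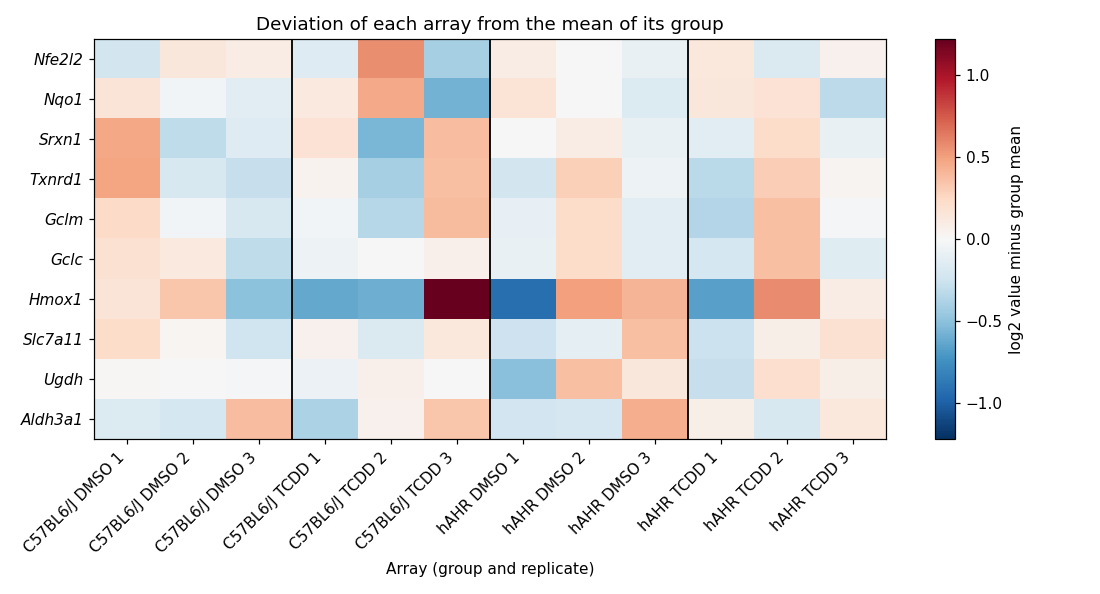
Heat map of the log2 value of each member minus the mean of its group in each of the 12 arrays (columns: arrays by group and replicate). In the C57BL6/J TCDD group Nfe2l2 (probe set 1416543_at) is above its mean in replicate 2, where Srxn1, Txnrd1 and Gclm are below theirs.

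A set of 5 members, picked after the values were seen, varied in parallel. All 10 pairs among Gclc, Gclm, Hmox1, Txnrd1 and Srxn1 were positive, from 0.43 to 0.93 with a median of 0.73, while of all 45 pairs of members 26 were positive. This was not particular to the 5. Slc7a11 was also positive with each of them, at 0.27 to 0.64, and so was Ugdh, at 0.087 to 0.65. The share of positive pairs among other genes was not computed. Nqo1 went the other way from most of the 5, with -0.62 against Hmox1, -0.40 against Gclm, -0.35 against Txnrd1 and -0.33 against Srxn1. Against Gclc it had 0.19. The near-floor Aldh3a1 had -0.54 with Gclc. Gclm and Txnrd1 had r = 0.93 (rho 0.92), with 0.93 in C57BL6/J and 0.95 in hAHR cells. Srxn1 and Txnrd1 had 0.88, Hmox1 and Gclm 0.79, and Gclc and Gclm 0.75. The positive value of Nfe2l2 with Nqo1, 0.59 (rho 0.27), rested on the C57BL6/J TCDD group, since it was -0.32 without the 2 arrays farthest from the median in Nfe2l2 and 0.17 without both replicate 2 arrays. In hAHR cells alone that pair had r = 0.00.

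**Figure D5:**
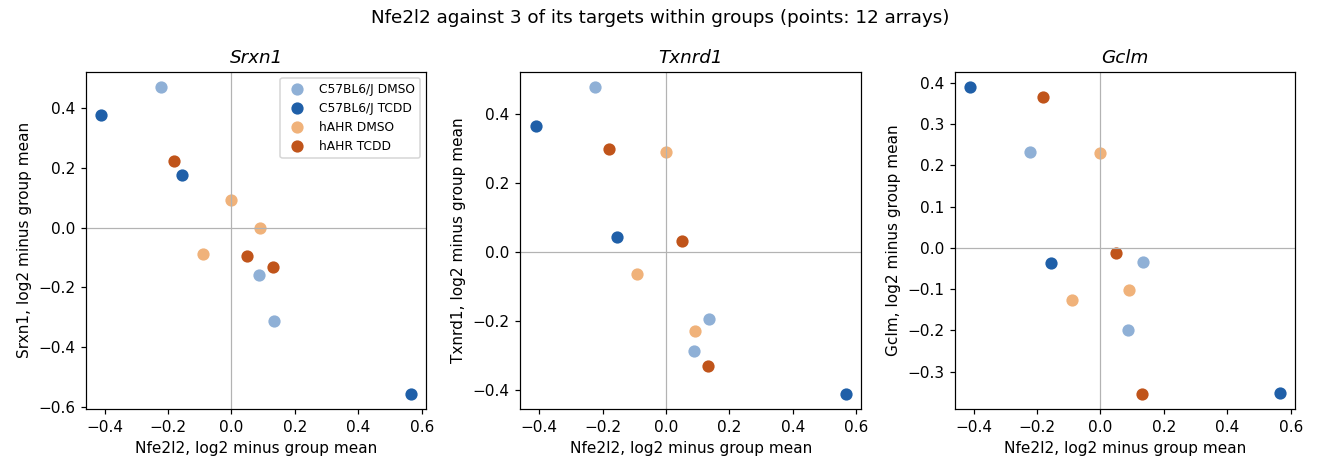
Nfe2l2 (probe set 1416543_at) against 3 of its targets, each as the log2 value minus the group mean, with 1 point per array and colours for groups. The slopes run downward for Srxn1 (r = -0.92), Txnrd1 (r = -0.81) and Gclm (r = -0.79).

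Over the 12 arrays, without subtracting group means, the 5 genes most like Nfe2l2 by Pearson's r among the 9096 brighter genes were Rnf217 (0.93), Zfp36l1 (0.92), Lmo7 (0.91), Atp8b1 (0.89) and Man1a (0.88). Nqo1 followed at 0.81, as number 22 in that order, and Gclc at 0.40. Gclm, Hmox1, Txnrd1 and Srxn1 had values from -0.35 to -0.03. Zfp36l1, an RNA-binding protein that promotes decay of AU-rich messages, read 791, 667 and 636 in hAHR DMSO arrays and 2163, 1603 and 1680.3 under TCDD. Its log2 change there was 1.35 (SE 0.29, adjusted p = 0.864 in limma), and in C57BL6/J cells 0.34 (SE 0.29). Rnf217 had 0.68 (SE 0.15) in hAHR and 0.36 (SE 0.15) in C57BL6/J cells. These genes were picked for following Nfe2l2 over the same arrays, so a like pattern over the groups is part of the choice.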

How the data were processed

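RNA from 12 cultures was measured on Affymetrix mouse arrays, 3 per group. The authors deposited linear intensities, normalised with PLIER-MM in Expression Console 1.1 per the submitters' processing notes. In the files the mean trimmed by 2% at each end was 150 in 9 arrays and 500 in the 3 C57BL6/J TCDD arrays, which PLIER does not by itself produce; all were rescaled to 150. Log2 of the intensity plus 16 was fitted with limma 3.58.1 in R 4.3.3 (group means over 12 arrays, 8 residual degrees of freedom, eBayes with trend, two-sided, Benjamini-Hochberg over 18193 genes). Control probe sets (64) were removed, and probe sets with several symbols (932) or none (9160) were not used. Folds include the offset. The precision is limited by 3 arrays a group. The fit was tested on simulated data. The authors' test, SAM, was not rerun. Figures used matplotlib 3.10.9 in Python 3.11.15.

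Members, gene lists and promoter rules were chosen with earlier results of these data known. Genes named from each list were those called and up to 4 with the smallest p in a TCDD comparison. Same-numbered arrays deviated together in hAHR cells (r of 0.19 to 0.27, other numbers at most -0.04), a pairing seen in the values and not stated by the labels, and in C57BL6/J cells r was 0.048 to 0.51 (other numbers up to 0.28). Both C57BL6/J arrays that carried Xist bore the same number. Intervals and p values take no account of a pairing except where a block is named. Alternatives covered scaling, offset, filter, fit, probe set handling, a replicate block and leaving out arrays.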

Additional observations from a re-analysis of the deposited data

How the results depend on the processing

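No member passed the adjusted threshold under any alternative other than leaving the intensities as deposited, where the 3 C57BL6/J TCDD arrays lie 3.33 times higher. There 10 members were called in C57BL6/J, 9 averaged over genotypes and 9 for the difference, among 14795, 12264 and 12647 genes, with 2 genes in hAHR cells; the difference was then -1.59 for Nfe2l2 and -1.37 for Nqo1. Genes called in C57BL6/J, 1 in the report, were 0 with a shared median, no intensity trend, only the 6 arrays, or without both C57BL6/J replicate 2 arrays, and 2 with every probe set tested. In hAHR cells, 4 in the report, they were 2 with quantile normalization or no intensity trend and 1 with the mean over probe sets, as averaged over genotypes. For the difference 1 gene was called without both C57BL6/J replicate 2 arrays. Between genotypes, 1 in the report, genes called were 0 with no trend, 2 with an offset of 50, array weights or the mean over probe sets, and 3 with every probe set. Leaving out 1 array gave 0 to 1 genes in C57BL6/J, 0 to 6 in hAHR cells, 2 to 5 averaged, 0 to 1 for the difference and 0 to 2 between genotypes. Other causes than the deposited scale were not tested.

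Directions turned mostly where a change was near 0. In hAHR cells Aldh3a1 was 0.37 with no offset, 0.033 with quantile normalization, 0.014 with a shared median and 0.023 with array weights. Srxn1 was -0.047 with quantile normalization and -0.019 with array weights, Hmox1 0.015 with a shared median, and Gclm and Slc7a11 -0.0049 and -0.0072 with the mean over probe sets. With array weights Aldh3a1 was -0.15 in C57BL6/J, -0.062 averaged and 0.17 for the difference. For Nfe2l2 the mean over probe sets gave a difference of -0.17 and a genotype value of 0.079, which was 0.0036 with quantile normalization and 0.050 without both C57BL6/J replicate 2 arrays.

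Leaving out 1 array turned further values. In C57BL6/J, Aldh3a1 ran from -0.013 to 0.35 and Hmox1 from -0.057 to 0.87; averaged, they ran from -0.011 to 0.18 and from -0.032 to 0.44. In hAHR cells Ugdh ran from -0.088 to 0.35, Aldh3a1 from -0.12 to 0.21, Gclm from -0.13 to 0.23, Hmox1 from -0.47 to 0.32, Srxn1 from -0.11 to 0.066 and Slc7a11 from -0.018 to 0.30. The difference ran from -0.061 to 0.43 for Nfe2l2, -0.072 to 0.45 for Nqo1, -0.36 to 0.056 for Aldh3a1, -0.32 to 0.018 for Gclc, -1.02 to 0.050 for Hmox1 and -0.27 to 0.046 for Slc7a11. Between genotypes Nfe2l2 ran from -0.13 to 0.050, Nqo1 from -0.13 to 0.033, Aldh3a1 from -0.25 to 0.16 and Gclc from -0.017 to 0.23.

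With a shared median the all-gene median in C57BL6/J was -0.08 in place of 0.03, and the share of genes above 0 was 35.0% in place of 55.7%, while the members' median was 0.32 with 10 of 10 above vehicle. For the difference the all-gene median was 0.10 in place of -0.04 and the members' -0.06 in place of -0.19. With the replicate number as a block, 0 members were called, and genes called were 1 in C57BL6/J, 5 in hAHR cells and 6 averaged over genotypes. An unadjusted p under 0.05 in limma was then found for 6 members in C57BL6/J, 3 in hAHR cells and 6 averaged. The 6 in C57BL6/J were Gclc (0.00280), Ugdh (0.00317), Gclm (0.00672), Txnrd1 (0.0112), Nfe2l2 (0.0156) and Srxn1 (0.0388), each with an adjusted p of 0.654. The block changed no call of a member.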
